A study of Sus scrofa with 6 samples.

Results

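Renal tubule transcription factors are the DNA-binding proteins that give the epithelium of the nephron its segments and its transport genes. The set described here holds 8 of them, SIM1, HNF4A, HNF4G, PAX2, PAX8, POU3F3, EMX2 and LHX1, taken by gene symbol from a table of 17670 pig genes. Of the 8, 6 had a row: SIM1 (ENSSSCG00000004357), HNF4A (ENSSSCG00000007371), HNF4G (ENSSSCG00000034242), PAX2 (ENSSSCG00000010556), POU3F3 (ENSSSCG00000022096) and EMX2 (ENSSSCG00000032558). PAX8 and LHX1 were not analysed here. All 6 passed the filter on low counts, with at least 262 counts in every library.

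The study sequenced RNA of immature Sertoli cells, which surround and feed germ cells in the testis cords, from pig testes at 80 to 90 days of gestation. The cells had been in culture for 6 h when AA2P (L-ascorbic acid 2-phosphate, a vitamin C derivative that keeps in medium) was added at 250 µM to 3 of the 6 samples. There were 3 AA2P libraries and 3 control libraries, in the same medium with serum and antibiotic, and the question asked was how AA2P changes the transcriptome. The sources used here do not give the length of treatment, the strain or the number of animals, and the labels do not say whether replicate libraries were independent cultures or animals. Errors and p-values therefore cover the spread among these libraries alone, and that spread may be technical.

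In the embryo the urinary and genital tracts arise from the same strip of mesoderm. PAX2 marks that strip and the duct that grows from it, and EMX2 is needed in mouse for both the kidney and the gonad. In mouse, POU3F3 acts later in the loop of Henle and distal nephron, and HNF4A in the proximal tubule, where nuclear receptors of the HNF4 family bind as dimers to direct repeats in the promoters of transport and metabolic genes. A Sertoli cell is defined by another set, among them SOX9, WT1, GATA4, NR5A1 and DMRT1.

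Library totals ran from 18747307 to 23122000 counts in AA2P libraries and from 19299585 to 23521291 counts in control libraries. AA2P library 3 lay nearest the controls, with a mean correlation of log2 CPM to the control libraries of 0.970 across genes, against 0.959 and 0.961 for AA2P libraries 1 and 2. With p-values of edgeR's quasi-likelihood test, Benjamini-Hochberg adjusted, 26.0% of the 12701 tested genes were higher and 26.1% lower with AA2P, which is 3302 and 3313 genes. When libraries were scaled by their totals instead of TMM factors, 5727 genes were higher and 1822 lower, and the median gene shifted up by 0.17 (log2). All changes are given relative to TMM, and levels are CPM, read counts divided by library size on that scale.

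The labelled cell type was checked against 12 Sertoli markers, of which 8 had a row. NR5A1, which drives gonadal steroid and AMH genes, INHA, the inhibin alpha chain, and DHH, a hedgehog ligand, were near the limit of detection. NR5A1 stood at 0, 0.0991 and 0.123 CPM with AA2P and at 0.180, 0.276 and 0 CPM in controls, where 3 counts correspond to 0.123 to 0.165 CPM. INHA had no counts in any AA2P library and at most 0.0551 CPM in controls. AMH, the hormone by which fetal Sertoli cells remove the Müllerian duct, was present at 34.5 ± 2.35 CPM with AA2P and 36.4 ± 1.52 CPM in controls (SD, n = 3 each), and SOX9 at 2.22 ± 0.459 and 11.6 ± 0.648 CPM. GATA4, DMRT1, FSHR and CLDN11 were not analysed here. NR5A1, INHA and DHH thus go against the label in both groups. The other markers with a row were present in controls, among them CLU, GATM and INHBB at means of 4230, 6.08 and 5.33 CPM. PAX2, HNF4A, LRP2 and SLC34A1, genes of kidney tubule, were expressed in the control libraries too. Among proximal tubule markers, SLC22A6, SLC22A8 and SLC13A3 were at or under 0.149 CPM in every library, and AQP1 averaged 0.854 CPM in controls. Whether the cultures are Sertoli cells is uncertain from these values, and the name below is the label's.

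The renal tubule factors were chosen with the AA2P against control values known, so their levels and changes are given as a description without a test. They did not move as one: SIM1 and HNF4A were several-fold higher with AA2P, POU3F3, HNF4G and PAX2 were higher by less than 2-fold, and EMX2 was lower. The AA2P and control libraries did not overlap for any of the 6, against 59.3% of all tested genes without overlap, 29.8% higher and 29.5% lower. A log2 fold change of at least 1 was found in 2 of the 6, against 5.53% of tested genes.

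**Figure D1:**
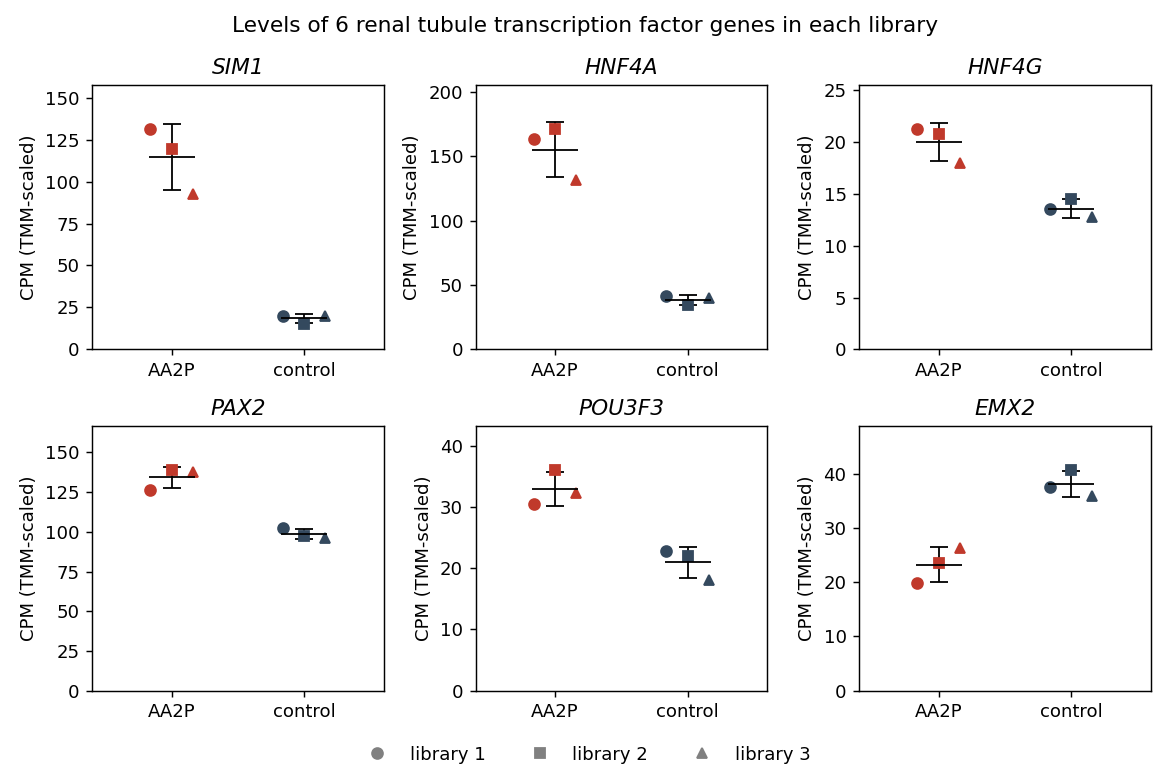
TMM-scaled CPM (vertical axis, from 0) of the 6 genes in the 3 AA2P and 3 control libraries; horizontal lines are means and bars SD (n = 3). SIM1 and HNF4A stand far above the controls with AA2P library 3 lowest of its group, and EMX2 is the gene whose AA2P libraries all lie below the controls.

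HNF4A is a nuclear receptor of liver, gut and proximal tubule, and in mouse kidney it is needed for proximal tubule cells to form. It stood at 163, 171 and 131 CPM in AA2P libraries 1 to 3, against 41.7, 34.2 and 39.8 CPM in control libraries 1 to 3. The lowest AA2P library was thus above the highest control by a wide margin, and library 3 was the low one. The fitted log2 fold change was 2.00 (SE 0.09), a 4.01-fold difference that ranked 204 from the top among 12701 genes. Every control library held between 620 and 926 counts of HNF4A, so the gene was also expressed without AA2P.

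HNF4G, the other gene of the family, is expressed in gut and kidney. Its levels were 21.2, 20.8 and 17.9 CPM in AA2P libraries and 13.5, 14.5 and 12.7 CPM in control libraries. The groups were close but did not overlap, and the log2 fold change was 0.56 (SE 0.09). Within a library the 2 genes can be set against each other without any scaling. There were 7.68, 8.23 and 7.32 HNF4A counts for each HNF4G count in AA2P libraries, against 3.10, 2.36 and 3.13 in control libraries. The balance of the pair therefore lay further towards HNF4A in each AA2P library, whatever scaling is used, although counts were not corrected for gene length and say nothing of which protein is more abundant.

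SIM1 is a factor of the bHLH-PAS family, which binds DNA together with ARNT or ARNT2. It is best known from neurons of the hypothalamus in mouse, and in zebrafish it is needed in the proximal part of the embryonic kidney tubule. Its levels were 131, 119 and 92.9 CPM in AA2P libraries and 20.1, 15.2 and 20.2 CPM in control libraries. As for HNF4A, AA2P library 3 was the lowest of its group and control library 2 the lowest of the controls. The log2 fold change was 2.62 (SE 0.12), a 6.16-fold difference, and 0.827% of the tested genes had a larger one. Without AA2P library 3 the log2 fold changes of SIM1 and HNF4A were 2.76 and 2.11.

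PAX2 is a paired-box factor of the early kidney that stays active in collecting duct and in repairing tubule cells. Its levels were 126, 139 and 137 CPM in AA2P libraries, against 102, 97.7 and 95.9 CPM in control libraries. The difference was small and even across libraries, with a log2 fold change of 0.44 (SE 0.05). AA2P library 3 was not the lowest of its group here.

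POU3F3, a POU-domain factor also called BRN1, stood at 30.5, 36.0 and 32.3 CPM in AA2P libraries and at 22.9, 21.9 and 18.0 CPM in control libraries. All AA2P libraries were above all controls, and AA2P library 3 lay between the other two. The log2 fold change was 0.65 (SE 0.09).

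EMX2 is a homeobox factor of the developing ureteric bud, gonad and forebrain. It was the only one of the 6 to be lower with AA2P, at 19.9, 23.5 and 26.3 CPM in AA2P libraries and 37.6, 40.6 and 35.9 CPM in control libraries. Library 3 was the AA2P library nearest the controls, as it was for SIM1, HNF4A and HNF4G. The log2 fold change was -0.70 (SE 0.09), and it was -0.80 without AA2P library 3. In human and mouse an antisense transcript overlaps EMX2, and the strand setting of the counting was not given, so its counts may hold reads of both.

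The place of AA2P library 3 was common among genes that were higher with AA2P. It was the lowest AA2P library for 488 of the 702 genes called higher by at least 2-fold, which is 69.5%, and for 56.1% of all 3302 genes called higher. The 6 directions were the same under library totals, where SIM1, HNF4A, POU3F3, HNF4G, PAX2 and EMX2 had log2 fold changes of 2.79, 2.17, 0.82, 0.73, 0.61 and -0.54.

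**Figure D2:**
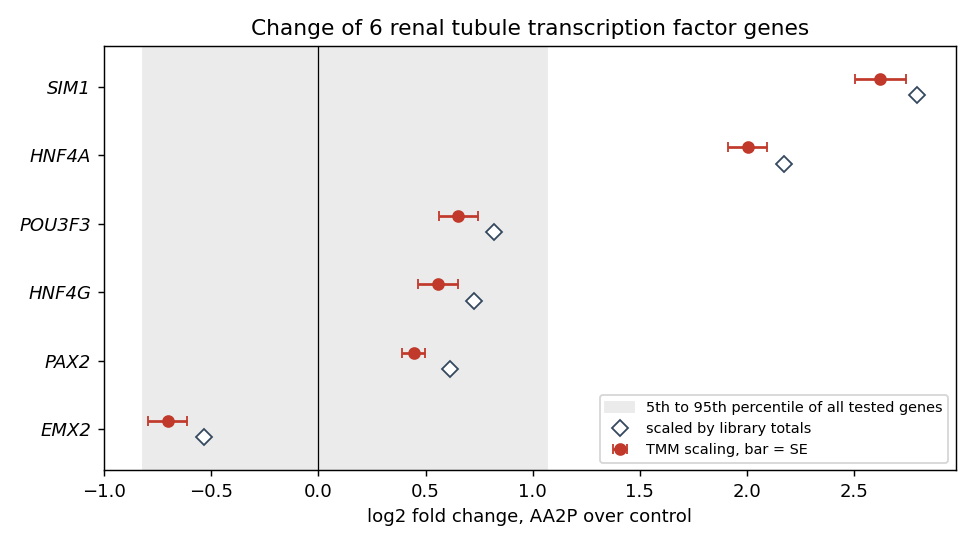
Log2 fold change, AA2P over control (horizontal axis), of the 6 genes with TMM scaling (filled points, bars are standard errors) and with scaling by library totals (open diamonds). SIM1 at 2.62 and HNF4A at 2.00 lie outside the band that holds the 5th to 95th percentile of all tested genes, -0.82 to 1.07, and the other 4 lie within it.

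Other transcription factors of the tubule and collecting duct went both ways. Of 28 listed factors 21 had a row and 17 were tested, of which 6 rose, 4 fell and 7 missed the threshold, with a median log2 fold change of -0.07 against 0.00 over all tested genes. These shares lie near the 26.0% higher and 26.1% lower among all tested genes and are no result about the list.

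IRX5, an Iroquois homeobox factor, rose 2.67-fold to 18.1 ± 1.14 CPM with AA2P, against 6.73 ± 0.665 CPM in controls (SD, n = 3 each). ESRRB, an orphan nuclear receptor, rose 1.70-fold. EHF, an ETS factor of epithelia, had the largest change of the list and fell 6.66-fold, to 19.1, 19.7 and 31.5 CPM in AA2P libraries, against 145, 166 and 162 CPM in control libraries (log2 fold change -2.74, adjusted p 4.8e-11 by edgeR). The vitamin D receptor VDR fell 1.77-fold and the bile acid receptor NR1H4 1.36-fold. CUX1 was called lower by 0.15 on the log2 scale, but its sign turned with library totals, to 0.02. It also missed the threshold under other alternatives, among them those without AA2P library 1, control library 1 or control library 2. Adjusted p-values by edgeR's quasi-likelihood test were 8.7e-09, 4.3e-06, 6.7e-07, 0.000343 and 0.0270 for IRX5, ESRRB, VDR, NR1H4 and CUX1. GRHL2, ELF5 and MAF had fewer than 3 counts in every library. With library totals 7 of the list were higher and 3 lower.

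Factors of the nephron progenitor, its stroma and the podocyte also split. Of 22 listed 12 had a row and 8 were tested, of which 3 rose and 3 fell, with a median log2 fold change of 0.04. Among all tested genes 26.0% were higher and 26.1% lower. SIX4, a homeobox factor of early kidney and gonad, fell to 20.5 ± 2.14 CPM with AA2P, against 36.3 ± 1.18 CPM in controls (SD, n = 3 each). WT1, which acts in kidney progenitors, podocytes and Sertoli cells alike, fell to 19.9, 23.2 and 28.2 CPM in AA2P libraries, against 45.5, 38.8 and 37.8 CPM in control libraries. SALL1, a zinc finger factor of nephron progenitors, rose slightly to 101 ± 5.75 CPM with AA2P, against 80.1 ± 3.49 CPM in controls. OSR2 and CITED1 were called higher at 2.09 ± 0.564 and 0.709 ± 0.100 CPM with AA2P, against 1.12 ± 0.295 and 0.369 ± 0.165 CPM in controls. By edgeR's quasi-likelihood test the adjusted p-values were 2.2e-07, 1.1e-05, 0.000140, 0.00970 and 0.0477 for SIX4, WT1, SALL1, OSR2 and CITED1. The OSR2 call was lost without control library 3, at an adjusted p of 0.0606, and the CITED1 call under 8 of the alternatives, among them the removal of any AA2P library (adjusted p 0.0583 to 0.106) or of control library 1 or 2 (0.222 and 0.0667). With library totals 4 of the list were higher and 3 lower.

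Partners of the renal tubule factors were more often higher than lower. Of 20 listed proteins that bind or modify them, 17 were tested, of which 11 rose and 4 fell, beside 26.0% higher and 26.1% lower among all tested genes, with a median log2 fold change of 0.24. The 2 dimer partners of SIM1 moved apart. ARNT2 stood at 488, 514 and 455 CPM in AA2P libraries, against 301, 282 and 271 CPM in control libraries, and rose 1.71-fold. ARNT, which also serves the hypoxia-inducible factors, was called lower at 96.2 ± 2.42 CPM with AA2P and 110.0 ± 2.39 CPM in controls (SD, n = 3 each), but the call was lost with library totals, at an adjusted p of 0.714 by edgeR.

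Co-regulators of nuclear receptors and of LIM factors were among the genes that changed. NR2F2, a nuclear receptor that binds the same direct repeats as HNF4A, rose 2.02-fold to 36.8, 36.7 and 27.7 CPM in AA2P libraries, against 17.9, 14.6 and 17.3 CPM in control libraries. Its relative NR2F6 rose 1.37-fold and the coactivator NCOA2 1.46-fold. The coactivator PPARGC1A had the largest change of the list, 4.74-fold, at low levels of 1.58 CPM with AA2P and 0.333 CPM in controls. Its adjusted p was 1.5e-05 by edgeR. CREBBP and EP300 rose 1.115-fold and 1.08-fold, and NCOA1 missed the threshold. Cofactors of LIM-homeodomain proteins such as LHX1 went both ways. The lower ones were LDB1, at 37.0 ± 2.43 CPM with AA2P and 54.6 ± 3.25 CPM in controls, and SSBP2, at 43.5 ± 2.16 and 65.2 ± 1.13 CPM (SD, n = 3 each). SSBP3 and SSBP4, of the same family as SSBP2, were higher, with log2 fold changes of 0.29 and 0.24 and adjusted p-values of 0.000721 and 0.0294 by edgeR. RLIM, a ubiquitin ligase that acts on LIM cofactors, was called lower by 0.21 on the log2 scale, and this call too was lost with library totals, at an adjusted p of 0.497 by edgeR. The edgeR test gave adjusted p-values of 8.1e-09 for ARNT2, 8.0e-07 for NR2F2, 1.4e-05 for NR2F6, 2.2e-07 for NCOA2, 3.0e-06 for LDB1, 3.5e-07 for SSBP2, 0.00388 for ARNT and 0.00219 for RLIM. With library totals 11 of the list were higher and 2 lower.

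Close relatives of the renal tubule factors were mostly low or not analysed here. Of 23 listed genes of the SIM, PAX, POU3F, EMX and LIM-homeodomain families 11 had a row, and 5 of the 11 had fewer than 3 counts in every library. The 4 that were tested gave 3 lower and none higher, beside 26.1% lower and 26.0% higher among all tested genes. PAX6, best known from eye and pancreas, was the one with a sizeable level, at 19.9 ± 0.615 CPM with AA2P and 22.3 ± 0.896 CPM in controls (SD, n = 3 each), and it missed the threshold at an adjusted p of 0.0719 by edgeR. SIM2, the only paralogue of SIM1, stood at 0.601, 0.496 and 0.781 CPM in AA2P libraries and 0.947, 1.21 and 1.02 CPM in control libraries. PAX9 and LHX6 were also called lower, with log2 fold changes of -1.63 and -0.48 from mean levels under 4 CPM. The adjusted p-values of SIM2, PAX9 and LHX6 by edgeR were 0.0497, 0.00125 and 0.0460. The SIM2 call was lost under 9 alternatives, among them the removal of AA2P library 1 or 2 or of any control library (adjusted p 0.0647 to 0.167). The LHX6 call was lost under 6, among them the removal of AA2P library 1 or 2 or of control library 2 or 3 (0.0963 to 0.181). With library totals, with DESeq2 and with a filter of 1 CPM, 1 of the 4 genes was called lower, but not the same one. It was PAX9 with library totals and with DESeq2. It was LHX6 with the filter, which SIM2 and PAX9 did not pass.

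**Figure D3:**
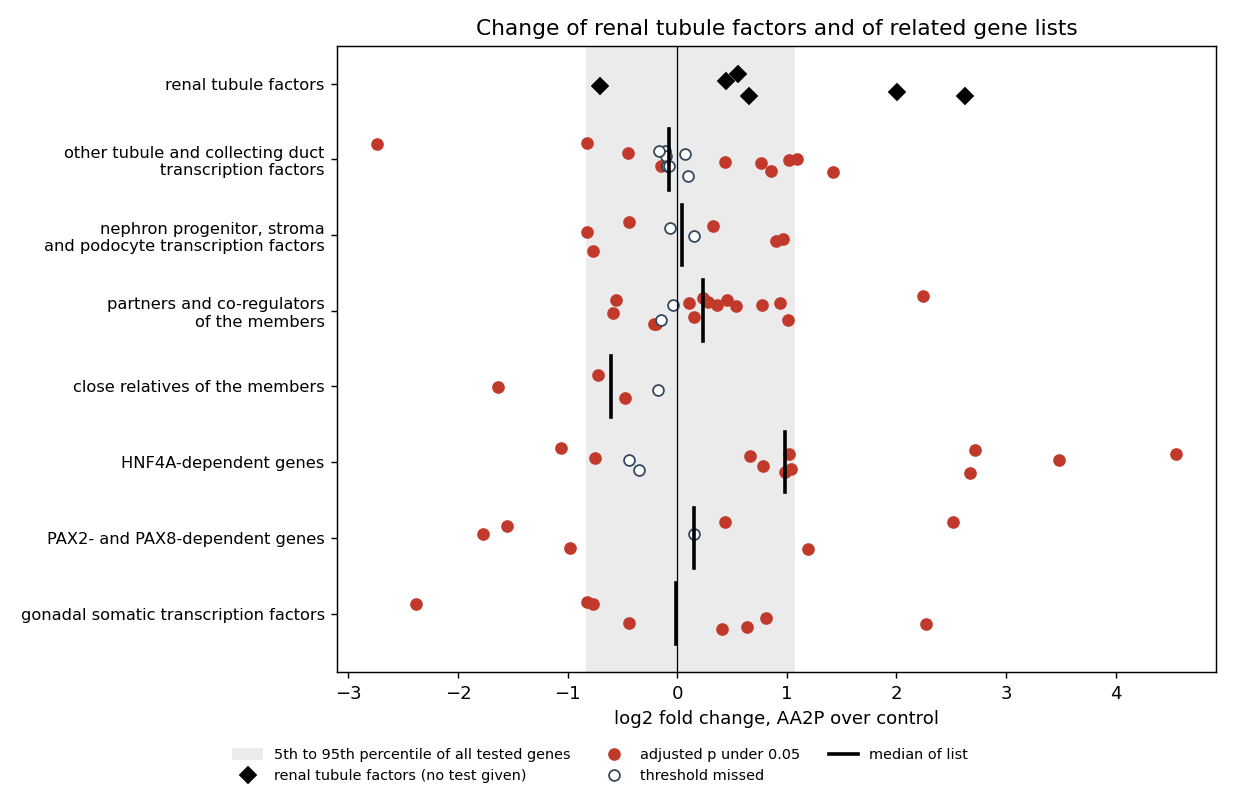
Log2 fold change, AA2P over control (horizontal axis), of the 6 renal tubule factors (diamonds) and of every tested gene of 7 related lists (filled, adjusted p under 0.05; open, threshold missed), with the median of each list as a bar and the 5th to 95th percentile of all tested genes shaded. The HNF4A-dependent genes have a median of 0.98, all 4 tested close relatives lie below 0, and each list other than the close relatives has genes on both sides of 0.

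Genes that HNF4A is known to control in liver, gut or proximal tubule were mostly higher. Of 25 listed symbols, which hold G6PC1 also under its older name G6PC, 18 had a row and 13 were tested. Of these 9 rose and 2 fell, beside 26.0% higher and 26.1% lower among all tested genes. The median log2 fold change was 0.98, or 1.15 with library totals, against 0.00 and 0.17 over all tested genes. PCK1, which starts gluconeogenesis from oxaloacetate, stood at 31.0, 26.3 and 19.4 CPM in AA2P libraries and 4.82, 2.20 and 4.71 CPM in control libraries. PKLR, the pyruvate kinase of liver and kidney, stood at 6.66, 6.99 and 4.15 CPM with AA2P, against 0.451, 0.0551 and 0.194 CPM in controls. In both genes control library 2 was the lowest control, as it was for HNF4A and SIM1. PKLR had 10, 1 and 4 counts in control libraries 1 to 3, which leaves the size of its change uncertain. PCK1 had 107, 40 and 97.

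The 2 genes of the list that fell were CREB3L3, a transcription factor of the liver's fasting response, and F7, coagulation factor VII. CREB3L3 stood at 4.81, 4.51 and 8.55 CPM in AA2P libraries and 12.8, 12.6 and 12.5 CPM in control libraries, with library 3 again the AA2P library nearest the controls. F7 stood at 1.02 ± 0.113 CPM with AA2P and 1.72 ± 0.106 CPM in controls (SD, n = 3 each), and its call was lost with DESeq2 at an adjusted p of 0.0762 and without AA2P library 2 at 0.0518. TTR and OTC, which mark hepatocytes, had fewer than 3 counts in every library. Adjusted p-values by edgeR's quasi-likelihood test were 1.3e-08 for PCK1, 2.3e-08 for PKLR, 7.3e-05 for CREB3L3 and 0.0121 for F7. The list overlaps with proximal tubule genes in general, and whether HNF4A took part in these changes was not tested.

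Genes tied to PAX2 and PAX8 went both ways. Of 12 listed 7 were tested, of which 3 rose and 3 fell, with a median log2 fold change of 0.16. For all tested genes the shares were 26.0% higher and 26.1% lower. DIO1, the deiodinase of thyroid and kidney, stood at 215, 215 and 163 CPM in AA2P libraries and 40.6, 28.3 and 33.7 CPM in control libraries. CDH16, a cadherin of kidney and thyroid epithelium, stood at 78.1, 78.9 and 69.2 CPM with AA2P, against 37.1, 32.1 and 29.7 CPM in controls. Both were lowest in AA2P library 3 within their group. GATA3, a factor of the ureteric bud, rose 1.36-fold.

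The genes that fell were RET, GDNF and ITGA8. RET, a receptor of the growing ureteric bud, stood at 9.39 ± 0.613 CPM with AA2P and 18.5 ± 1.31 CPM in controls, and its ligand GDNF at 1.27 ± 0.326 and 3.76 ± 0.304 CPM (SD, n = 3 each). ITGA8, an integrin chain that acts upstream of GDNF in mouse, stood at 68.7, 70.5 and 107 CPM with AA2P, against 277, 278 and 290.2 CPM in controls. In the same edgeR test, adjusted p-values were 4.1e-11 for DIO1, 2.7e-09 for CDH16, 0.00396 for GATA3, 2.9e-07 for RET, 9.0e-06 for GDNF and 2.3e-09 for ITGA8. The thyroid genes TG and SLC5A5, which PAX8 controls there, were at or under 0.583 CPM in every library. With library totals 4 of the list were higher and 3 lower.

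Gonadal transcription factors that mark the Sertoli and other somatic cells of the gonad split evenly, with 4 of 8 tested genes higher and 4 lower. Among all tested genes 26.0% were higher and 26.1% lower. The median log2 fold change of the list was -0.01. SOX9, which directs Sertoli fate, fell 5.20-fold to 1.70, 2.58 and 2.38 CPM in AA2P libraries, against 12.3, 11.5 and 11.0 CPM in control libraries. WT1 and SIX4, described above, also fell. CBX2, a Polycomb protein, rose to 12.2 ± 0.581 CPM with AA2P, against 6.97 ± 0.351 CPM in controls (SD, n = 3 each). GATA6, a zinc finger factor of gonadal somatic cells, rose 1.33-fold. Adjusted p-values by edgeR's quasi-likelihood test were 9.9e-10 for SOX9, 5.3e-06 for CBX2 and 0.00648 for GATA6.

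Most tested markers of proximal tubule were higher with AA2P. Of 13 listed 12 had a row and 9 were tested. Of these 7 rose and 2 fell, beside 26.0% higher and 26.1% lower among all tested genes. The summed level of the list was 901 to 1255 CPM in AA2P libraries and 288 to 323 CPM in control libraries. LRP2, the endocytic receptor megalin, had the highest counts of the list with AA2P, at 742, 697 and 474 CPM with AA2P and 92.7, 65.1 and 82.6 CPM in controls. The phosphate transporter SLC34A1, the amino acid transporter subunit SLC3A1 and cubilin, CUBN, rose 5.67-fold, 3.61-fold and 3.46-fold, with adjusted p-values by edgeR of 7.4e-12, 4.8e-11 and 7.3e-10, and LRP2 had 5.8e-11. The 2 that fell were MIOX, the enzyme that breaks down inositol, at 2.40 ± 0.312 CPM with AA2P and 9.88 ± 0.245 CPM in controls, and the bicarbonate transporter SLC4A4, at 92.9 ± 5.67 and 122 ± 2.39 CPM (SD, n = 3 each). Their adjusted p-values by edgeR were 3.0e-09 and 1.2e-05. SLC22A6 and SLC13A3, transporters of mature tubule, had fewer than 3 counts in every library. The part of these marker genes in the levels of HNF4A and SIM1 was not tested. In RNA of whole cultures, fewer cells of a kind and less RNA per cell cannot be told apart.

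**Figure D4:**
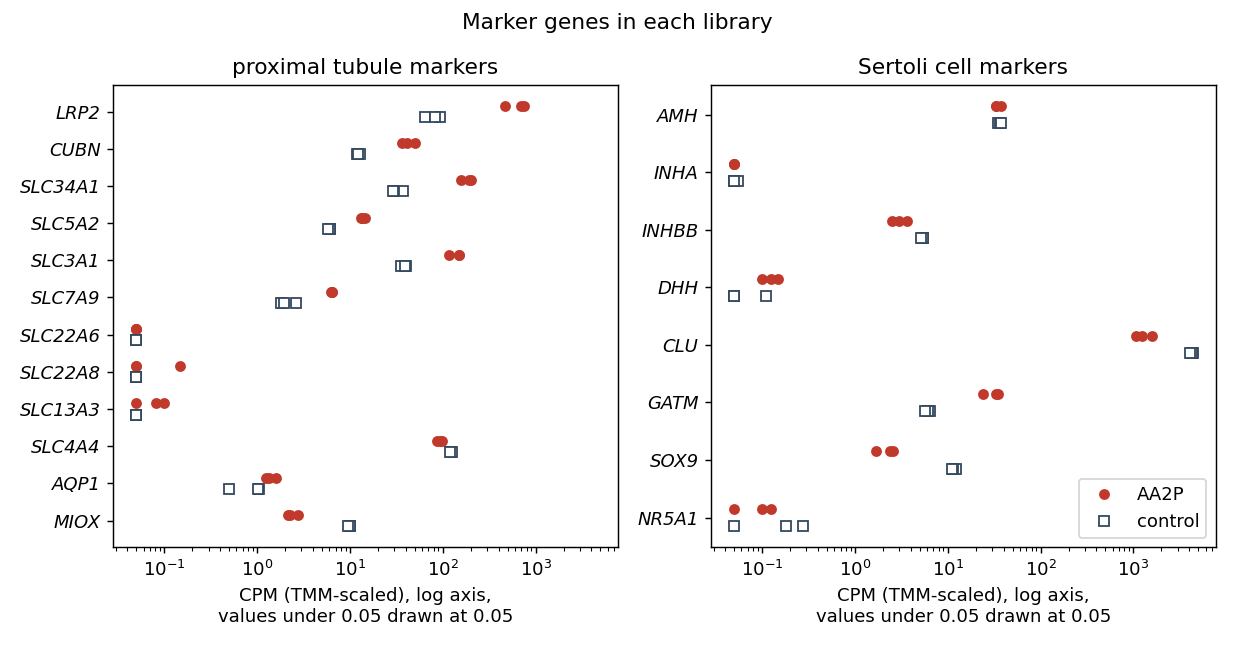
TMM-scaled CPM (horizontal log axis, values under 0.05 drawn at 0.05) of proximal tubule markers, left, and Sertoli cell markers, right, with 1 point for each AA2P library (filled) and control library (open). LRP2, SLC34A1, SLC3A1 and CUBN lie to the right with AA2P and are also present in controls, while NR5A1, INHA and DHH lie near the limit of detection in both groups.

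Sertoli markers mostly fell. Of 5 tested 3 fell, GATM rose and AMH missed the threshold at an adjusted p of 0.384 by edgeR. Over all tested genes 26.1% were lower and 26.0% higher. The sum of the list was 1147 to 1663 CPM in AA2P libraries and 4097 to 4399 CPM in control libraries, nearly all of it clusterin, CLU, a secreted chaperone also made by injured tubule, at 1302 ± 266 and 4230 ± 168 CPM (SD, n = 3 each). INHBB, an activin chain, fell 1.73-fold, and GATM, the first enzyme of creatine synthesis and abundant in proximal tubule too, rose 4.97-fold. These had edgeR adjusted p-values of 6.0e-10, 0.000458 and 4.7e-10 for CLU, INHBB and GATM.

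Epithelium of the genital ducts shares PAX2 and EMX2 with the kidney, and its markers went both ways. Of 12 listed 8 had a row and 6 were tested. Of these 3 rose and 2 fell, beside 26.0% higher and 26.1% lower among all tested genes. The list summed to 1175 to 1335 CPM with AA2P and 1600 to 1758 CPM in controls. The keratin KRT8 and the adhesion protein EPCAM fell 1.55-fold and 2.01-fold, while the oestrogen receptor ESR1 and the sodium-proton exchanger SLC9A3 rose 5.05-fold and 12.9-fold from levels under 0.5 CPM. Adjusted p-values by edgeR were 6.6e-08, 3.2e-08, 6.9e-06 and 7.8e-08 in that order. SLC9A3 is listed here for genital duct only, and in RNA of whole cultures its rise cannot be assigned to duct rather than tubule epithelium. AQP9 had fewer than 3 counts in every library.

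Markers of other nephron segments and of other cells were low, with exceptions. UMOD of the loop of Henle, SLC12A3 of the distal tubule and AQP2 of the collecting duct had fewer than 3 counts in every library. The proton pump subunit ATP6V1B1, listed for collecting duct, stood at 150.5 ± 11.5 CPM with AA2P and 53.0 ± 5.49 CPM in controls (SD, n = 3 each). SLC12A1 of the loop averaged 6.1 CPM with AA2P and 2.94 CPM in controls. SCNN1G and AQP3 of the collecting duct averaged 3.01 and 1.35 CPM with AA2P, against 1.44 and 0.646 CPM in controls. All 3 tested collecting duct genes and the 1 tested loop gene were called higher, beside 26.0% of all tested genes. The 1 tested distal tubule gene missed the threshold, so higher markers were not particular to the proximal tubule list. The sums over the loop, distal tubule and collecting duct lists were 5.40 to 7.97, 2.40 to 3.33 and 142 to 164 CPM with AA2P, against 2.54 to 4.27, 2.57 to 4.27 and 51.0 to 61.7 CPM in controls. The podocyte list summed to 13.2 to 15.5 CPM with AA2P and 21.5 to 23.1 CPM in controls. Sums were 6.36 to 7.38 CPM with AA2P and 5.58 to 5.84 CPM in controls for Leydig cells, 8.22 to 11.3 and 37.9 to 42.3 CPM for smooth muscle, and 6.08 to 8.03 and 2.03 to 2.87 CPM for endothelium. In the smooth muscle list desmin (DES) fell to 8.35 ± 1.83 CPM with AA2P, against 39.1 ± 1.92 CPM in controls, CNN1 was called higher at 1.18 ± 0.167 and 0.595 ± 0.139 CPM (SD, n = 3 each), and MYH11 had fewer than 3 counts in every library. Germ cell and macrophage sums were under 0.5 CPM in every library, and the mesothelial genes were not analysed here.

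The genes whose profile over the 6 libraries was most like that of SIM1, by Pearson r of log2 CPM, were ZFAT, KIF24, OXNAD1, ACSS1 and COL4A5, with r between 0.9992 and 0.9999. Those most like HNF4A were SCRN1, SH3RF2, GPM6A, ANKS4B and ACAT2, with r between 0.9992 and 0.9997. The size of the change differed widely among them, with log2 fold changes of 0.31 for ZFAT and 3.37 for ANKS4B. Such likeness was common: of 10336 other genes with a symbol and a mean of at least 1 CPM, 266 had r above 0.99 with SIM1 and 298 with HNF4A. For HNF4G, PAX2, POU3F3 and EMX2 the numbers were 35, 59, 27 and 84. The 6 libraries fall into the AA2P and control groups, so r holds the group difference and is given as a description.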

How the data were processed

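RNA of 3 AA2P and 3 control samples was sequenced. The submitters' processing notes name bcl2fastq and the aligner HISAT2 2.0.5. The sources used here do not give the counting tool, strand setting, annotation or genome build, so no coordinates are printed and overlapping, antisense or near-identical genes are uncertain. Promoter motifs were not analysed here. The authors deposited whole-number counts per gene, which are not normalized. All other values were computed from these counts.

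Symbols came from a table of gene names and were found for 13141 of 17670 identifiers. R 4.3.3 with edgeR 4.0.16 was used: filterByExpr, TMM factors, a quasi-likelihood F test on group alone, and Benjamini-Hochberg adjustment over 12701 genes at 0.05. Log2 fold changes are AA2P over control. Standard errors (SE) were derived from F and the log2 fold change (its size divided by the root of F). Log2 CPM used a prior count of 2. A level of 3 counts is 0.123 to 0.165 CPM and covers counting error only. The fit was tested on simulated counts of this comparison, where it called 36 of 50 genes simulated with a log2 change of 0.5 and 47 of 50 with a change of 1. There were 9 false calls among 191, over 12612 genes. The simulation changed far fewer genes than were called in the data, with random sign, so its false calls do not give the error rate here.

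The renal tubule factors, gene lists and markers were chosen with earlier results of these data known, and the lists from general knowledge. In each list the text names up to 4 called genes in each direction by smallest p, for 3 marker lists up to 4 called genes, and the 5 genes most like SIM1 and HNF4A. Some genes that this rule takes are not reported here. Other genes named were chosen after their values were seen. Alternatives were DESeq2 size factors, library totals, no filter, a filter of 1 CPM in 3 libraries, DESeq2 1.42.0, the replicate number as a block, a prior count of 2, an adjusted p of 0.01 and each library left out.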

Additional observations from a re-analysis of the deposited data

How the results depend on the processing

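The log2 fold changes of the 6 renal tubule factors kept their sign under every alternative run. Leaving out 1 library at a time gave 2.50 to 2.76 for SIM1, 1.92 to 2.11 for HNF4A, 0.51 to 0.64 for HNF4G, 0.42 to 0.49 for PAX2, 0.55 to 0.72 for POU3F3 and -0.80 to -0.60 for EMX2. Library totals moved HNF4G to 0.73, PAX2 to 0.61, POU3F3 to 0.82 and EMX2 to -0.54. These moves were larger than the pooled within-group SD of log2 CPM of each gene. SIM1 and HNF4A moved by a similar amount, to 2.79 and 2.17, which was less than their own SD. The median of all tested genes shifted by 0.17, and the numbers of all genes moved to 5727 higher and 1822 lower. Under library totals the partner list had 2 lower genes and the close relatives 1, and the sign of CUX1 turned to 0.023. The close relatives also had 1 lower gene under a filter of 1 CPM and with DESeq2, and 1 to 3 with 1 library left out. The HNF4A-dependent list had 1 lower gene with DESeq2 and 1 to 2 with 1 library left out. Apart from library totals, the causes were not tested. Of 52 genes that the rule takes from the lists, 8 lost their call in at least 1 alternative.

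No pairing of the libraries by replicate number was detected: deviations from the group means of same-numbered libraries correlated at -0.04, -0.02 and -0.06, and no library correlated best with its own number. With 3 libraries a group these values cannot show that same-numbered libraries shared no culture or animal. With the replicate block, 3094 genes were higher and 3110 lower, SIM1 and HNF4A had log2 fold changes of 2.62 and 2.00, and CUX1 missed the threshold at an adjusted p of 0.0527 by edgeR. The 3 libraries a group limit the precision of every value.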
